A study of Mus musculus with 6 samples.

Results

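The cells described here are CD8 T cells, the killer lymphocytes of adaptive immunity, found inside mouse rhabdoid tumors by single-cell RNA sequencing. They were selected on measured values: a cell counted as a member when it held at least 1 unique molecular identifier (UMI, 1 captured mRNA molecule) of Cd8a or Cd8b1, at least 1 UMI of Cd3d, Cd3e or Cd3g, and fewer than 20 UMIs of C1qa, C1qb and C1qc per 10000. The rule took 550 of the 22163 cells left by a quality filter of 200 or more genes per cell and no more than 25% of UMIs from mitochondrial genes. Rhabdoid tumors arise on loss of the chromatin remodeler subunit Smarcb1. The series used here, a part of the study's single-cell data, holds 6 tumors of the MYC subgroup, each from 1 mouse on a C57BL/6 background: 3 MYC spinal tumors (MYC spinal 1, 2 and 3, aged 19, 26 and 17 weeks, all Rosa26-cre) and 3 extracranial rhabdoid tumors, eRT (eRT 1, 17 weeks, Rosa26-cre, from a gland, and eRT 2 and 3, 29 and 22 weeks, Sox2-cre, from jaw and shoulder). The numbers only name the tumors, and series of 6 values below run from MYC spinal 1, 2 and 3 to eRT 1, 2 and 3. All mice carried floxed Smarcb1 alleles and a tamoxifen-inducible Cre, driven by the ubiquitous Rosa26 promoter or by the Sox2 locus, and received 1 dose of 50 mg/kg tamoxifen in utero at embryonic day 6.5. Every MYC spinal tumor came from the Rosa26 model and 2 of the 3 eRT from the Sox2 model, so Cre driver and subtype were partly confounded. The labels and the study's table give different ages for the gland tumor, and the label's age is used. The study's table lists the mice of MYC spinal 1 and 3 and eRT 3 as female and the others as male. Tumors were dissociated, red cells were lysed, and the sort gated out debris, doublets and dead cells, with no gate for immune cells.

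A CD8 T cell reads peptides on MHC class I through its T cell receptor, with CD8 as coreceptor, and after activation makes chemokines, interferon gamma and cytotoxic granules of perforin and granzymes. Naive and central memory cells recirculate through lymph nodes with the help of Ccr7, Klf2 and S1pr1, while cells that stay in tissue carry Cxcr6 or the integrin Itgae, and chronic stimulation raises inhibitory receptors such as Pdcd1. Natural killer (NK) cells share the granule machinery and many lectin-like receptors but have no antigen receptor.

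The coreceptor chains that chose the cells are given as a description only. Cd8b1 lies at chr6:71322788-71337494 and Cd8a at chr6:71373427-71379173, both on the plus strand of mouse build GRCm38, and the annotation lists both as protein-coding genes. Of the 550 members, 295 held UMIs of both chains, 151 of Cd8b1 alone and 104 of Cd8a alone. Cd8b1, the chain of conventional alpha-beta coreceptors, made up 55.2, 54.5, 57.7, 55.3, 73.3 and 60.4% of the CD8 UMIs of the members from MYC spinal 1 to eRT 3. Cd8a stood at 977, 432, 317, 616, 457 and 455 CPM, the UMIs of a gene scaled to a common library size, in the same order, and Cd8b1 at 1202, 518, 433, 763, 1257 and 693 CPM. Just inside the threshold, 149 members held exactly 1 CD8 UMI and 80 held 2, and 25 rested on 1 CD8 and 1 CD3 UMI. Between 10 and 20 C1q UMIs per 10000 lay 3 members, and 4 cells that met the other conditions lay just outside, between 20 and 40.

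The label was checked against markers, which left doubt about more than 1 tumor, most about MYC spinal 2. Nkg7, a granule membrane protein and the only fixed marker outside the rule, reached 2959.9, 561, 1048, 2699, 1462 and 1299 CPM from MYC spinal 1 to eRT 3. Cd4 UMIs were found in 7 members and Foxp3 UMIs in 7. Xcr1, a gene of the dendritic cells that also make Cd8a, gave 12, 0, 0, 0, 1 and 0 UMIs over all members of each tumor. MYC spinal 2 stood apart: 16 of its 19 members held 1 CD8 UMI, their median was 773 UMIs per cell against 1183 to 2158 in the other tumors, and 8 of the 19 reached 1000 UMIs. Its members also carried the neutrophil genes S100a8 and S100a9 at 1727 and 2245 CPM. Members with 1 CD8 UMI numbered 53 of 323 in MYC spinal 1 and 32 of 90 in MYC spinal 3. In eRT 1, 2 and 3 they numbered 3 of 14, 28 of 76 and 17 of 28. In all tumors the summed level of the 6 neutrophil markers in the members was 2.51, 4360.2, 1946, 176, 556 and 0 CPM in the order given, that of the 8 macrophage markers 379.5, 561, 1003, 822, 442 and 866 CPM, and that of the 8 tumor and fibroblast markers 3.76, 0, 1048, 0, 45.7 and 887 CPM. The macrophage markers include C1qa, C1qb and C1qc, which the rule capped, so that sum was partly set by the selection. After thinning to 1000 UMIs per cell, a UMI of S100a8, S100a9 or Lyz2 was found in 1.86% of members in MYC spinal 1, in 8 of the 8 deep enough in MYC spinal 2, and in 35.6 to 45.2% in the other tumors. Every gene of these 3 lists had a UMI in some member, against 3 of 6 B cell, 2 of 4 endothelial and 0 of 4 mast cell markers. The B cell markers Igkc and Ighm were absent from the counts of all tumors and could not be read in any cell. The MYC spinal 3 members carried Angptl7, a marker on the tumor list, at 496 CPM. Members held 798334, 23164, 268183, 34081, 131303 and 46200 UMIs in all, so 3 UMIs, taken as the limit below which a level of 0 cannot be resolved, equal 3.76 CPM in MYC spinal 1 and 129.5 CPM in MYC spinal 2. The chain genes of the T cell receptor were not analysed here, nor were cell barcodes shared between libraries. The targeted gene Smarcb1 was present in the members at 56.4, 86.3, 59.7, 58.7, 60.9 and 64.9 CPM. These 3′ reads need not lie in the deleted part, so they check no label.

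CD8 T cells were unevenly spread over the tumors. MYC spinal 1 held 323 of them, 22.0% of its kept cells (95% exact binomial interval 19.9 to 24.2%), or 58.7% of all members. MYC spinal 3 held 90 (1.34%), eRT 2 held 76 (3.72%), eRT 3 held 28 (0.697%), MYC spinal 2 held 19 (0.330%) and eRT 1 held 14 (0.653%). The MYC spinal mean was 7.88% ± 12.2 (SD, n = 3) and the eRT mean 1.69% ± 1.76 (SD, n = 3), a difference of -6.19 percentage points with p = 0.7 in an exact two-sided permutation test, where 20 splits allow no p under 0.1. Without MYC spinal 1 the difference turned to 0.858 (p = 0.8, exact permutation). Taken against Cd3-positive cells, CD8 T cells made up 32.6, 8.64, 34.7, 23.7, 13.5 and 16.7% from MYC spinal 1 to eRT 3. The subtype ranges overlapped, with means of 25.3% ± 14.5 and 18.0% ± 5.23 (SD, n = 3 each) and an exact permutation p of 0.4. Without MYC spinal 2 the difference between the subtype means was -15.7 percentage points. That tumor had both the lowest share and the lowest median depth of CD8 T cells. In a repeat, cells were thinned to 1000 UMIs before the rule was applied, and cells under that depth were left out. The shares were then 28.1, 4.84, 28.8, 26.8, 13.8 and 14.7%, with the lowest value in MYC spinal 2. Only 8 of the 19 members of that tumor reached 1000 UMIs, so its share rests on few cells. Whether depth accounts for its low share was not tested. The difference between the subtype means in this repeat was -2.17 percentage points (exact permutation p = 0.8). PCR copies are collapsed by the UMIs, and intervals cover counting error only.

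**Figure D1:**
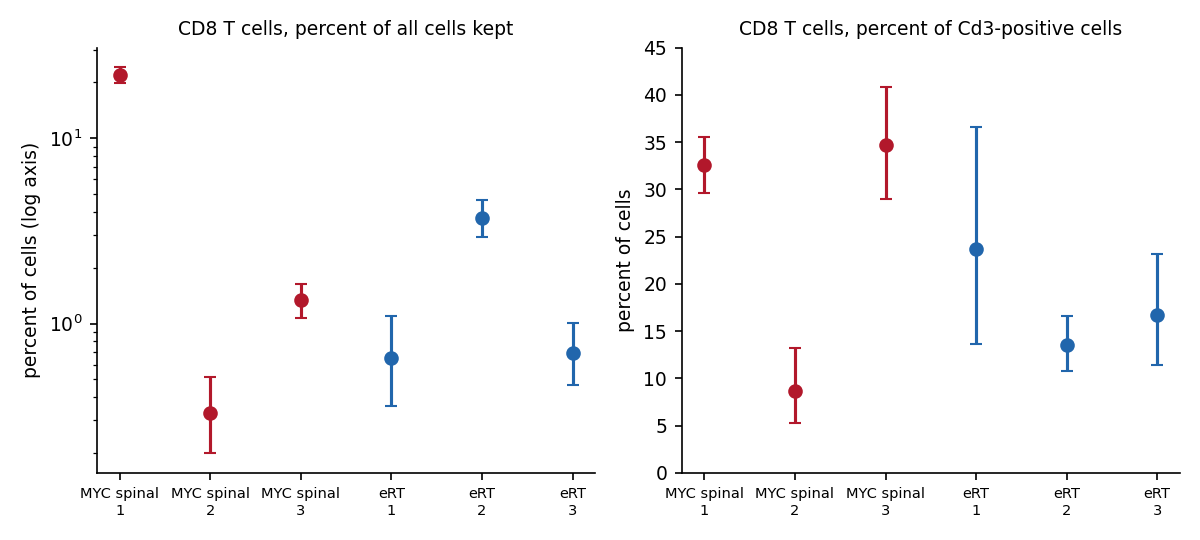
CD8 T cells per tumor as percent of all kept cells (left, log axis) and of Cd3-positive cells (right), with 95% exact binomial intervals as bars. MYC spinal 1 stands at 22.0% on the left, and the other 5 tumors lie between 0.330 and 3.72%.

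The cytotoxic genes of the CD8 T cells varied widely among the tumors, with eRT 1 and MYC spinal 1 at the upper end. Gzmb, the serine protease that triggers target cell death, stood at 372, 0, 224, 2201, 327 and 0 CPM from MYC spinal 1 to eRT 3, highest in eRT 1 and without a UMI in MYC spinal 2 and eRT 3. Gzmk, a granzyme of early effector and memory cells, stood at 256, 0, 22.4, 176, 22.8 and 64.9 CPM, and perforin, Prf1, at no more than 18.8 CPM. Ccl5, a chemokine that recruits T cells and macrophages, was read in every tumor at 5396, 1381, 932, 5692, 2925 and 1558 CPM. Xcl1, the chemokine for cross-presenting dendritic cells, ranged from 0 to 2083 CPM with the peak in eRT 1, and Ifng stood at 55.1, 0, 101, 88, 83.8 and 21.6 CPM. With every cell thinned to 1000 UMIs, a UMI of Gzma, Gzmb, Gzmk, Gzmc or Prf1 was found in 38.8, 0, 22.2, 64.3, 17.7 and 3.85% of members, against 1.46, 12.5, 1.43, 0.383, 2.7 and 0.371% of C1q-high cells, the macrophages that should lack them. In eRT 1 the share rests on 14 cells (exact 95% interval 35.1 to 87.2%). In MYC spinal 2 no UMI was read in 8 cells, and 3 of 8, the limit taken for a count of 0, would be 37.5% of cells with a UMI. At their own depth the shares in members were 52.9, 0, 33.3, 78.6, 27.6 and 7.14%. Members numbering 322, 8, 90, 14, 62 and 26 reached the thinned depth. Median depths at full reads were 2067, 773, 2157.5, 1817.5, 1349.5 and 1183 UMIs in members. C1q-high cells had medians of 3140.0, 1017, 2310.0, 4307, 1710.5 and 2234 UMIs.

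Residence and recirculation genes split the tumors differently. Cxcr6, the receptor that holds T cells in tissue, stood at 798, 0, 82, 352, 168 and 498 CPM from MYC spinal 1 to eRT 3, and after thinning a UMI of Cxcr6, Itgae or Itga1 was found in 47.8, 0, 8.89, 42.9, 9.68 and 50% of members against 2.92, 0, 0.326, 0.0958, 2.03 and 0.371% of C1q-high cells. MYC spinal 1 and eRT 1 and 3 lay between 42.9 and 50.0%, and MYC spinal 3 and eRT 2 at 8.89 and 9.68%. MYC spinal 2 could not be placed, since 3 of its 8 cells, the limit taken for a count of 0, would be 37.5%. Ccr7, the lymph node homing receptor, was highest in eRT 2, with 47.6, 43.2, 149, 29.3, 479.8 and 108 CPM in the order given. Dapl1, a gene of resting CD8 T cells, stood at 139, 259, 224, 323, 312 and 368 CPM, and was found in 6.21, 37.5, 18.9, 7.14, 21.0 and 15.4% of thinned members against at most 0.676% of C1q-high cells. Pdcd1, which encodes the inhibitory receptor PD-1, stood at 184, 43.2, 37.3, 176, 91.4 and 43.3 CPM, and its share of thinned members was 14.0, 0, 4.44, 7.14, 11.3 and 3.85%. In C1q-high cells it was 8.03% in MYC spinal 1 and at most 0.676% elsewhere. Any of Pdcd1, Lag3, Havcr2, Tigit and Ctla4 was read in 17.4, 0, 7.78, 14.3, 21 and 3.85% of members, but also in 39.4, 12.5, 3.52, 4.41, 6.76 and 3.71% of C1q-high cells, so in MYC spinal 1 this share was lower in members than in macrophages. Havcr2, a marker of late exhaustion, was read at 0 to 58.7 CPM in members, and Tox, a regulator of the exhausted state, at 14.9 to 129 CPM. Macrophages make Havcr2 too.

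**Figure D2:**
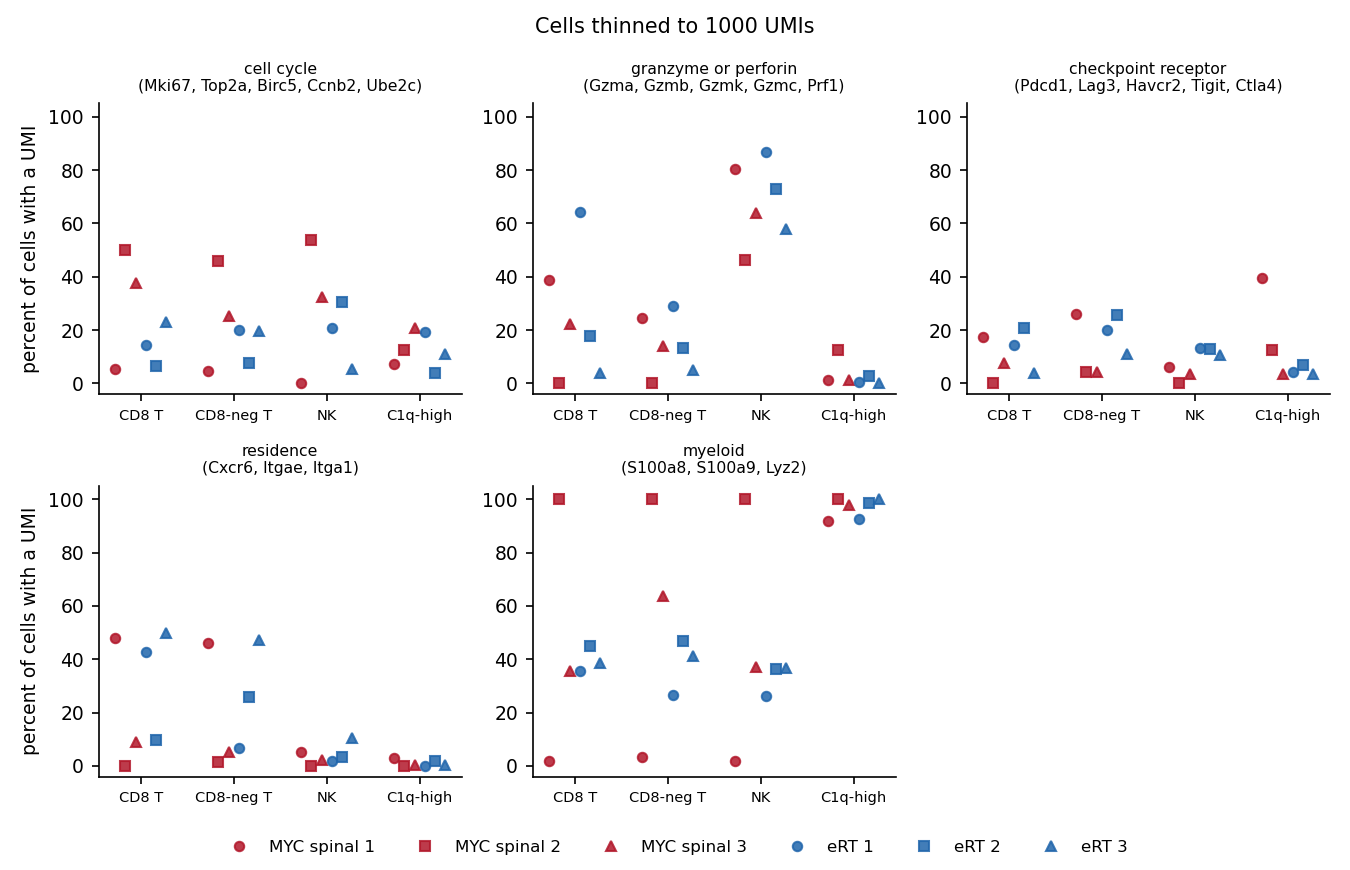
Percent of cells, thinned to 1000 UMIs, with at least 1 UMI of each gene group named above a panel, for 4 kinds of cells and each tumor (symbol and color). Granzyme or perforin shares of CD8 T cells run from 0 in the 8 cells of MYC spinal 2 to 64.3% in eRT 1. Residence shares are 42.9 to 50.0% in 3 tumors and lower in MYC spinal 3 and eRT 2, while the 8 cells of MYC spinal 2 are too few to place it. The myeloid panel runs from 1.86% of thinned members in MYC spinal 1 to all 8 thinned members of MYC spinal 2.

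Within tumors, the members were not uniform. In MYC spinal 1, with 322 thinned members, Dapl1 was found in 1.79% of the cells with Ccl5 and in 16.2% of those without. In MYC spinal 3 the same shares were 15.2 and 21.1%, and in eRT 2 they were 14.3 and 26.5%, on 90 and 62 cells. The counts behind them were 4 of 223 and 16 of 99 cells, 5 of 33 and 12 of 57, and 4 of 28 and 9 of 34. In eRT 3 the direction was the opposite, 28.6% (2 of 7 cells) with Ccl5 and 10.5% (2 of 19) without, and in MYC spinal 2 and eRT 1 Dapl1 was read only in cells without Ccl5, in 3 of 8 and 1 of 14 cells overall. No test was made, since cells of 1 tumor are not replicates. Pdcd1 was found in 17.6% of Gzmb-positive and 13.0% of Gzmb-negative cells of MYC spinal 1, and in 9.52% of Ly6c2-positive and 18.8% of Ly6c2-negative cells. A UMI of Mki67, Top2a, Birc5, Ccnb2 or Ube2c was read in 5.59, 50, 37.8, 14.3, 6.45 and 23.1% of thinned members, lowest in MYC spinal 1 and eRT 2. C1q-high cells gave 7.3, 12.5, 21, 19.3, 4.05 and 11%, above the members in MYC spinal 1 and eRT 1.

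Interferon-stimulated genes were read in the members of every tumor. Isg15, a ubiquitin-like protein induced by type I interferon, stood at 645, 0, 306, 381, 350.3 and 216 CPM from MYC spinal 1 to eRT 3 and Ly6a, a surface protein of activated lymphocytes, at 997, 129.5, 324, 1203, 716 and 195 CPM. The 9 genes of MHC class I presentation summed to 17799.6, 6907, 8558, 14700.3, 12909 and 7814 CPM, highest in MYC spinal 1 and eRT 1. Il17a, a cytokine of other T cells, was read in members at 45.7 CPM in eRT 2 and 281 CPM in eRT 3, and at 0 to 2.51 CPM elsewhere. In CD8-negative T cells it reached 2452 CPM in eRT 2 and 595 CPM in eRT 3.

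The first tested comparison asked how CD8 T cells differ from the other T cells of the same tumor. The reference was CD8-negative T cells, those with a CD3 UMI, no CD8 UMI and the same C1q limit, 669, 201, 169, 45, 486 and 140 cells from MYC spinal 1 to eRT 3. CD8 T cells carried more Dapl1, Nkg7, the inhibitory lectin receptor chain Klrc1 (NKG2A) with its partner Klrd1 (CD94), and Ccl5, and less Gzmc, Tnfrsf4 and RNA of myeloid genes. In edgeR's quasi-likelihood test with tumor as a block and Benjamini-Hochberg adjustment, 106 of 2923 genes passed (3.63%), 25 higher (0.855%) and 81 lower (2.77%), with the rule genes left out of the test. Without TMM normalization the split was 49 higher and 70 lower. The count fell to 37 without MYC spinal 1, 41 without MYC spinal 3 and 43 without eRT 2. These are differences between 2 sets drawn on CD8 UMIs, and a CD8 T cell whose CD8 reads were missed counts among the CD8-negative cells. Members needed a CD8 and a CD3 UMI, reference cells a CD3 UMI alone. A myeloid cell with a stray CD3 UMI can therefore enter the reference more easily. How much of the lower myeloid RNA and higher T cell RNA of members comes from this was not tested.

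Dapl1 led the genes that were higher in every tumor (log2 fold change 3.20 ± 0.33 (SE), adjusted p = 3.5e-05, higher in 6.0 of 6 tumors). CD8-negative T cells held 12, 83.5, 13.6, 17.3, 59.6 and 0 CPM of it, each below the members of the same tumor, and the 2 sets of values did not overlap. Nkg7 was higher in members (log2 fold change 2.01 ± 0.22 (SE), adjusted p = 5.8e-05, higher in 6.0 of 6 tumors), with 1079, 289.8, 316, 553, 223 and 151 CPM in CD8-negative T cells. Klrc1 was higher (log2 fold change 1.79 ± 0.21 (SE), adjusted p = 1.1e-04, higher in 6.0 of 6 tumors), although MYC spinal 2 gave 1 UMI on each side. Klrd1 was higher (log2 fold change 0.97 ± 0.17 (SE), adjusted p = 0.0026, higher in 6.0 of 6 tumors). Klrd1 at chr6:129591782-129598775 and Klrc1 at chr6:129666015-129678973, with Klrk1 at chr6:129610323-129623864 between them, are neighbors in the NK receptor region of GRCm38. Klrk1, which encodes the activating receptor NKG2D, rose as well (0.86, adjusted p = 0.012, 5 of 6 tumors). Ms4a6b, a membrane protein of T cells, rose by 1.18, Gramd3, a lipid-binding protein, by 1.31, Rmnd5b by 0.86 and Myc, the growth-promoting transcription factor, by 0.84 on the log2 scale, each in 6 of 6 tumors. Rmnd5b and Myc passed in only 1 of 10 and 1 of 9 alternative fits that tested them, and lost the call without TMM. Reads of Klrc1 and its close relative Klrc2 could be split between them.

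By function, 3 of the 7 tested genes of the cytotoxic list were higher, Nkg7, the granule cathepsin Ctsw (1.08) and the cystatin Cst7 (0.87), and Gzmc was lower (-2.63), while the list's median was 0.64 beside -0.03 over all genes. Gzmb did not pass, at 0.64 with adjusted p = 0.2. Of 3 tested cytokine genes Ccl5 (1.60) and Xcl1 (1.64) rose, each in 5 of 6 tumors. For Ccl5 the exception was MYC spinal 3, with 932 CPM in members and 1240.2 in CD8-negative T cells. Of 9 tested naive and memory genes Dapl1 and Ccr7 (1.28, 5 of 6 tumors) rose, and the list's median was 0.33. Of 11 genes of receptor signaling the kinase Lck (0.94) and the surface glycoprotein Thy1 (0.75) rose, with 10 of 11 positive. Of 8 costimulatory receptors Cd27 rose (1.18) and Tnfrsf4 (OX40), a receptor of activated CD4 and regulatory T cells, fell (-1.48, adjusted p = 0.0014, 6 of 6 tumors). The homing list gave 1 rise of 5 tested, Ly6c2, a surface protein of memory and effector CD8 T cells (1.33, adjusted p = 0.04, 5 of 6 tumors), and Ly6c2 reads could be shared with its near-identical neighbor Ly6c1. None of 3 checkpoint, 4 residence, 11 interferon, 13 cell cycle or 8 MHC class I genes passed, and Cxcr6 stood at 0.01 and Pdcd1 at 0.13. Of 5 tested NK receptor genes the 3 lectin-like receptors rose and the adaptors Tyrobp and Fcer1g fell. The helper and regulatory list had 2 of 9 genes tested, of which Tnfrsf4 fell, and none of the 8 gamma delta genes reached the test. Of 10 transcription factors Id3, an inhibitor of E proteins, fell (-1.27). Of 11 immediate early and stress genes 0 were positive and Zfp36 (-1.08), Atf3 (-1.05) and Nfkbia (-0.81) fell.

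Many of the genes on the lower side are known from myeloid cells. Tyrobp, a signaling adaptor of myeloid and NK cells, fell (log2 fold change -1.47 ± 0.20 (SE), adjusted p = 2.2e-04, lower in 6.0 of 6 tumors), and so did its partner Fcer1g (log2 fold change -1.57 ± 0.20 (SE), adjusted p = 1.2e-04, lower in 6.0 of 6 tumors). Lyz2, lysozyme of macrophages and neutrophils, stood at 20, 1899.5, 776, 293, 129 and 411 CPM in members and 418, 3890.2, 2865, 345, 910.1 and 532 CPM in CD8-negative T cells, lower in members in 6 of 6 tumors (-2.00, adjusted p = 0.0019). All 3 tested neutrophil markers passed, S100a8 (-2.61), S100a9 (-1.91) and Retnlg (-2.52), as did Ms4a6c (-0.99) and Lyz2 of 4 tested monocyte markers, on which list Ly6c2 rose (1.33), and Apoe (-1.18) of 2 tested macrophage markers. S100a8, Ms4a6c and Apoe were lower in 5 of 6 tumors, and S100a9 and Retnlg in only 4 of 6. S100a9 passed in 10 of 15 alternative fits and lost the call without MYC spinal 2. The 8 largest falls of named genes that were lower in every tumor included the chemokines Ccl2 (-2.03) and Ccl6 (-1.81), and Wfdc17 (-1.99). Also among them were the Fc receptor Fcgr3 (-1.90), annexin Anxa1 (-1.84), Tgfbi (-1.83) and the metallothionein Mt1 (-1.78). Summed neutrophil markers in CD8-negative T cells were 3.33, 73226, 3858, 1174, 1589.6 and 0 CPM from MYC spinal 1 to eRT 3, and macrophage markers 986, 192, 1644, 2819, 697 and 1274 CPM. The C1q genes are among these macrophage markers and were capped by the limit in both kinds of cells. With cells of 20 or more myeloid UMIs per 10000 left out, a comparison added after the data were seen that dropped MYC spinal 2 for lack of members, 73 of 2327 genes passed, 28 higher and 45 lower. Of the 39 named genes 26 could be tested there and 23 passed, 15 higher and 8 lower, with Lyz2, Mt1 and Apoe lost. The filter counted UMIs of Lyz2 and of the macrophage and neutrophil lists, Apoe among them. It lowers these genes by construction, so for them this was no independent repeat.

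**Figure D3:**
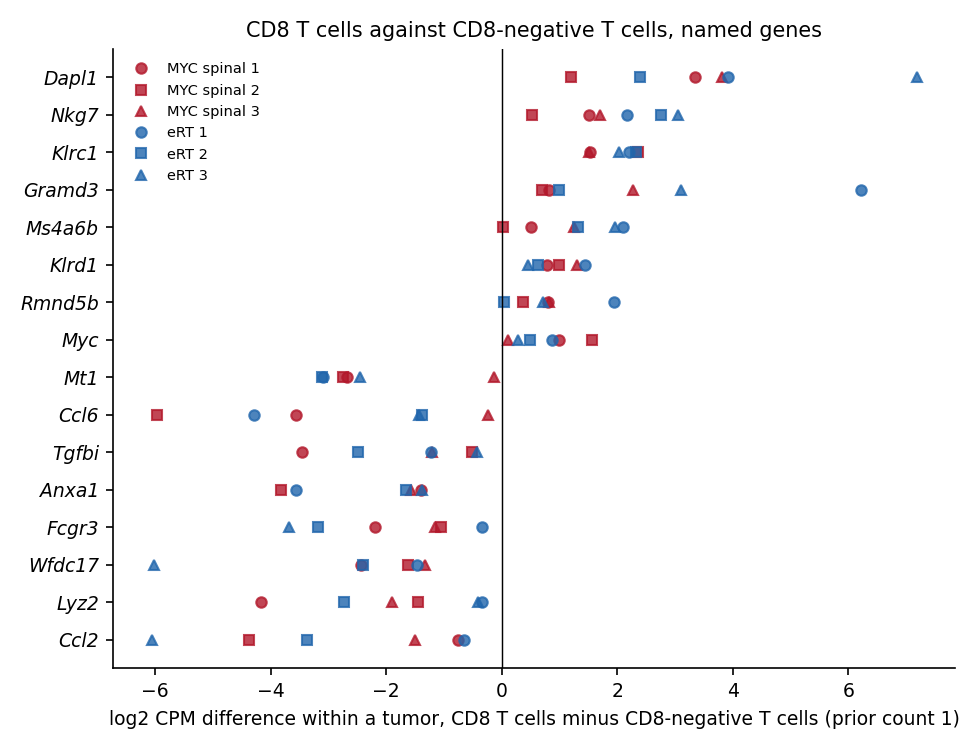
Difference in log2 CPM between CD8 T cells and CD8-negative T cells within each of the 6 tumors (symbols), for the 8 genes with the largest rise and the 8 with the largest fall that had the same sign in every tumor. Dapl1, Nkg7 and Klrc1 lie right of 0 in all tumors, and the myeloid genes lie left of 0.

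The second comparison set CD8 T cells against NK cells of the same tumor, 127, 26, 86, 53, 90 and 19 cells with a UMI of Ncr1, Klrb1c or Klre1 and none of CD3 or CD8. It reuses the member sums of the first, so the comparisons are not independent. CD8 T cells held almost no Gzma and little Gzmc, had Nkg7 levels that overlapped those of NK cells, and carried more Dapl1, Lat and Icos. In the same kind of test 66 of 2124 genes passed (3.11%), 31 higher (1.46%) and 35 lower (1.65%). The count fell to 22 without MYC spinal 1, 28 without MYC spinal 3 and 26 without eRT 2.

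Gzma, a granzyme stored by NK cells, was read at 53.9, 0, 89.5, 58.7, 7.62 and 0 CPM in members and 5954, 1863, 1734, 3274, 1896 and 1003 CPM in NK cells from MYC spinal 1 to eRT 3. The 2 sets of values did not overlap (log2 fold change -5.98 ± 0.38 (SE), adjusted p = 1.0e-06, lower in 6.0 of 6 tumors). Gzmc stood at 5.01, 0, 160.3, 88, 15.2 and 0 CPM in members and 286, 0, 4089.8, 1484, 5527 and 2005 CPM in NK cells, with both at 0 in MYC spinal 2 (log2 fold change -5.68 ± 0.44 (SE), adjusted p = 8.4e-06, lower in 5.0 of 6 tumors), and its reads could be shared with its close relatives in the granzyme cluster of chromosome 14. Gzmb was lower as well (log2 fold change -1.58 ± 0.32 (SE), adjusted p = 0.013, lower in 6.0 of 6 tumors), and eRT 1 was highest on both sides, at 2201 CPM in members and 4103 in NK cells. These 3 were the calls among 7 tested cytotoxic genes, none of which was positive. Nkg7 differed by -0.09 ± 0.18 (SE) on the log2 scale, adjusted p = 0.95. None of the 5 tested cytokine genes passed: Ccl5 was at 1.07 and Xcl1 at -1.43, with adjusted p = 0.21 and 0.25.

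Of 8 tested NK receptor genes 6 were lower in CD8 T cells, with a list median of -2.06 beside 0.01 over all genes. Tyrobp stood at -2.75 and Fcer1g at -2.65 on the log2 scale, lower in 6 of 6 tumors. The Ly49 receptors Klra3 and Klra7 were at -3.99 and -3.36, and their reads could be split with other members of that family. Klrd1 (-1.44) and Klrk1 (-1.48) fell too, although both were higher in members than in CD8-negative T cells, and the level in members lay between the other 2 kinds in 6 of 6 tumors for Klrd1 and in 5 of 6 for Klrk1. Lower genes outside the lists were the signaling inhibitor Spry2 (-3.90), the Fc receptor Fcgr3 (-3.15), Nrgn (-2.80) and carbonic anhydrase Car2 (-2.78). Of the listed regulators Irf8 (-2.24), the interleukin receptor Il2rb (-1.16), Tnfrsf9 (-1.19) and the chemokine receptor Ccr2 (-1.35) also fell.

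On the higher side, Dapl1 gave 246 UMIs in members and 0 in NK cells of all 6 tumors, which makes it at least 67.6-fold higher with 3 counts over the NK group as floor (adjusted p = 5.9e-05). Lat, the scaffold of T cell receptor signaling, was higher (log2 fold change 3.76 ± 0.29 (SE), adjusted p = 6.0e-06, higher in 6.0 of 6 tumors), with 69.1, 0, 31.6, 28.7, 26 and 0 CPM in NK cells against 790.4, 129.5, 216, 616, 396 and 909 in members. It was the 1 call among 8 tested receptor-signaling genes, 7 of which were positive. Icos, a costimulatory receptor of activated T cells, was higher (log2 fold change 3.04 ± 0.31 (SE), adjusted p = 5.9e-05, higher in 6.0 of 6 tumors). Ly6c2 (2.95), Gramd3 (3.04), the kallikrein Klk8 (2.53), Ly6a (2.41) and Ms4a6b (2.18) completed the largest rises, each in 6 of 6 tumors. All 11 tested interferon-stimulated genes were positive, with a median of 0.88, and 3 passed, Ly6a, Ifit3 (1.68) and Ifit1 (1.45). Cd69, an early activation and retention marker, rose (1.27, 6 of 6 tumors), as did Cxcr3, a chemokine receptor for inflamed tissue (1.63, 5 of 6 tumors). None of 11 cell cycle, 11 immediate early, 8 MHC class I or 2 checkpoint genes passed. Summed neutrophil markers in NK cells were 0, 19176, 2047, 110.1, 1224 and 0 CPM and macrophage markers 438, 38.8, 1399.6, 1202, 312 and 1590.4 CPM, and 29 of 29 named genes passed with the cells of 20 or more myeloid UMIs per 10000 left out. The NK cells were chosen under the same C1q limit, which capped part of their macrophage sum.

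**Figure D4:**
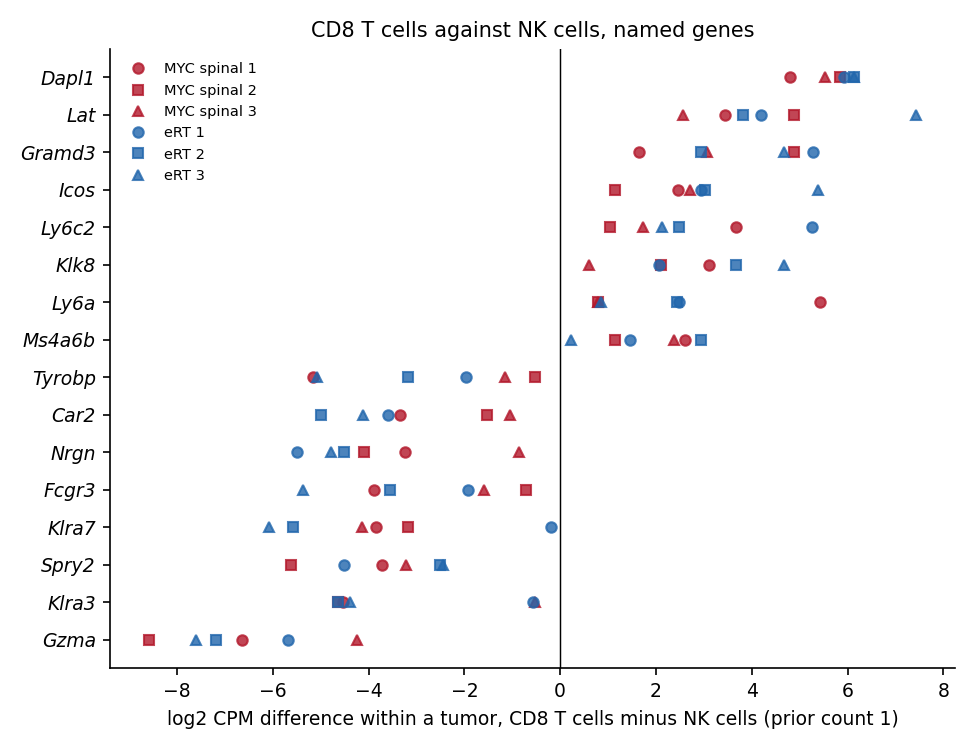
Difference in log2 CPM between CD8 T cells and NK cells within each of the 6 tumors (symbols), for the 8 genes with the largest rise and the 8 with the largest fall of the same sign in every tumor. Gzma lies between -8.59 and -4.25 and Lat between 2.56 and 7.43.

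**Figure D5:**
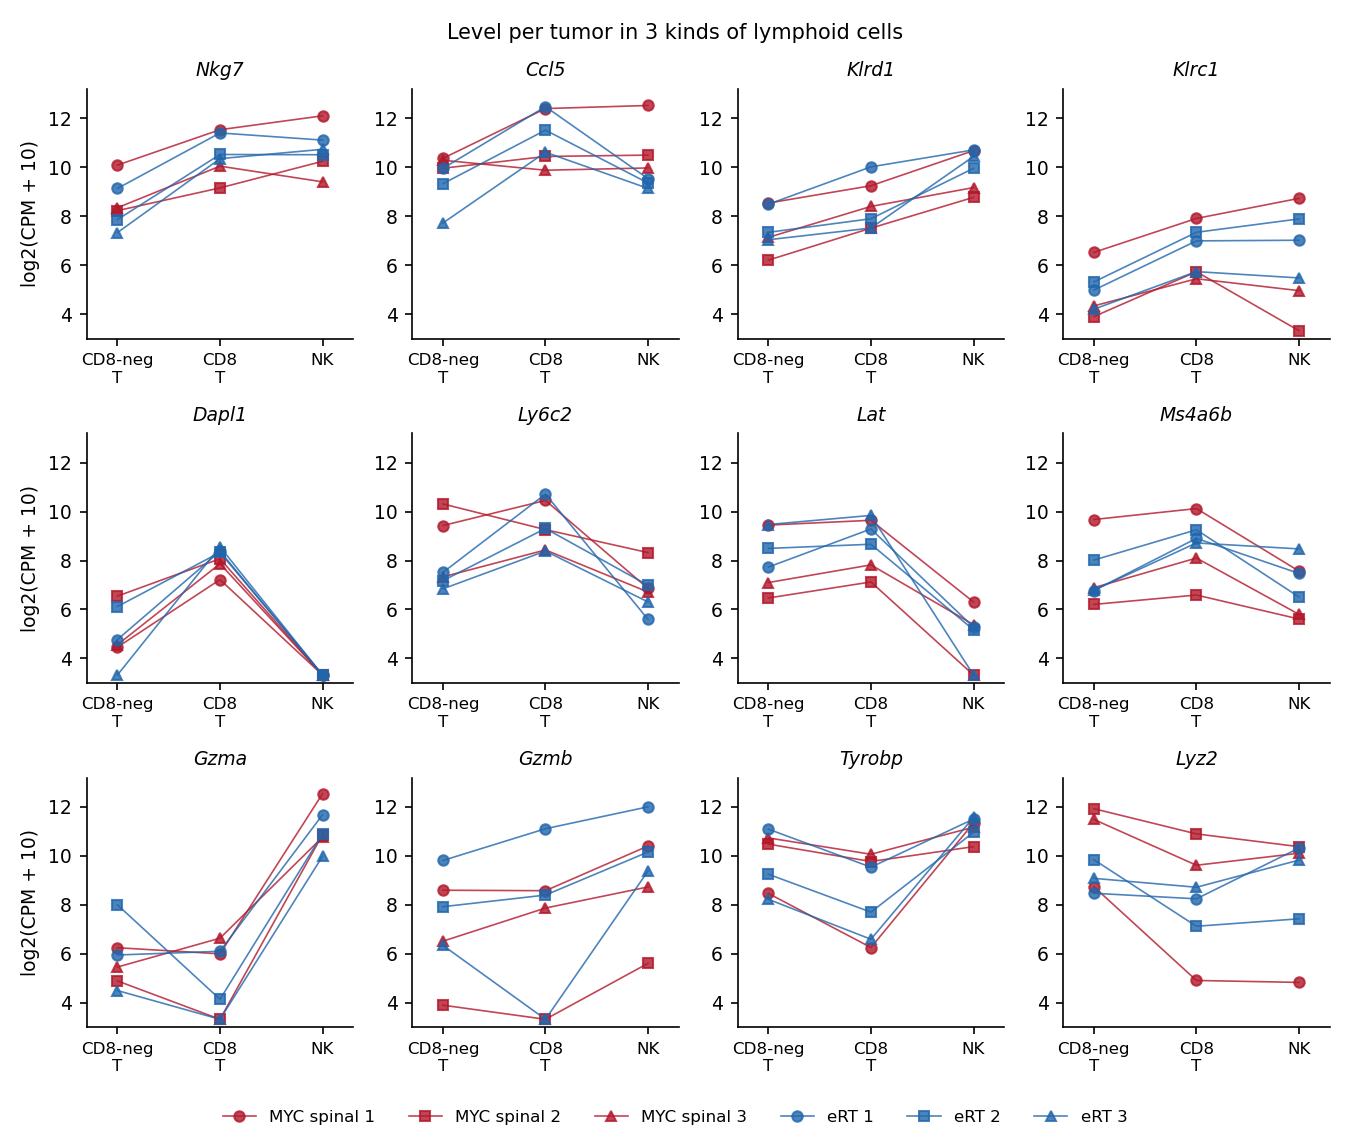
Level as log2(CPM + 10) of 12 genes in CD8-negative T cells, CD8 T cells and NK cells, with a line for each tumor (symbol and color). Dapl1 peaks in CD8 T cells in every tumor, Gzma is highest in NK cells in every tumor, and Klrd1 climbs from CD8-negative T cells through CD8 T cells to NK cells in every tumor.

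The subtypes were then compared within CD8 T cells, to ask whether the site of the tumor goes with another CD8 state. In edgeR's quasi-likelihood test of eRT against MYC spinal, 0 of 1261 genes passed (0%), 23 had an unadjusted p under 0.05, and DESeq2 called 0 with 19 under 0.05. With the Cre driver as a covariate 0 of 1261 passed and 29 had an unadjusted p under 0.05. The groups did not overlap for 76 genes (6.03%), 42 above and 34 below in eRT. Among list genes these were Dapl1, higher in eRT by 0.74 ± 0.40 (SE), and Bst2, an interferon-induced membrane protein, at -1.40 ± 0.51 (SE), neither of which passed the test. Random labels of 3 against 3 tumors separate a gene fully with an exact two-sided probability of 0.1, and 6.03% lies below that. Bst2 stood at 559, 345, 362, 293, 159.9 and 64.9 CPM from MYC spinal 1 to eRT 3. Ccl5 and Nkg7 levels overlapped between subtypes. On simulated counts of these 6 sums 200 of the 1261 genes were changed. The same test recovered 55.5% of them when changed by 2 on the log2 scale and 97% when changed by 4. No smaller change and no smaller number of changed genes was simulated. The difference between CD8 T cells and CD8-negative T cells was also compared between subtypes as an interaction, where 0 of 2923 genes passed in edgeR's test (0%), 101 had an unadjusted p under 0.05, and no other tool was run. The smallest adjusted p was 0.055, for the interferon-induced membrane protein Ifitm1. Its difference ran from 0.01 to 0.61 in the MYC spinal tumors and from -6.92 to -0.85 in the eRT. Of the list genes, Gzma (-3.67), Ccl5 (1.84), Nkg7 (1.23) and Ly6c2 (1.92) had the smallest p, each with adjusted p = 0.53, and the sign is that of eRT minus MYC spinal on the log2 scale.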

How the data were processed

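Each of the 6 tumors was deposited as a table of raw UMI counts, whole-number counts per gene and cell, which the authors made from 3′ droplet libraries with Cell Ranger 2.0.2 on mouse build mm10, keeping genes found in at least 3 cells and cells with at least 50 genes. A gene missing from a tumor's table was taken as 0. The quality filter asked for 200 or more genes per cell and no more than 25% of UMIs from mitochondrial genes. The members and gene lists were chosen with earlier results of these data known. Counts were summed per tumor and kind of cell, and tumors, 3 per subtype, were the replicates. edgeR 4.0.16 (quasi-likelihood test, TMM, filterByExpr, R 4.3.3) tested CD8 T cells against CD8-negative T cells and NK cells with tumor as a block, and eRT against MYC spinal, with Benjamini-Hochberg adjustment at 0.05. In the tests with tumor as a block, a p-value measures how the difference within a tumor varies from tumor to tumor. For eRT against MYC spinal, it measures the spread between tumors. DESeq2 1.42.0 was an alternative. Shares were compared by exact permutation over tumors. For shares of cells with a UMI, cells were thinned to 1000 UMIs. Named genes were those of the lists, and per test and direction the 8 largest changes among genes that passed, moved the same way in every tumor and had a mean log2 CPM of at least 5. The authors' sort had gated out doublets, and none were removed here: Scrublet (scanpy 1.11.5) called 20 of 22163 cells (0.0902%), too few to rely on, so the 843 highest scores, 13 of them members, were left out as an alternative. The test was tried on simulated data with 200 changed genes. When these were changed by 2 on the log2 scale, 99% were recovered against CD8-negative T cells and 98% against NK cells. Other alternatives were no TMM, no gene filter, stricter cell filters, at least 2 CD8 UMIs, no C1q UMI, no tumor block, and each tumor left out.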

Additional observations from a re-analysis of the deposited data

Results flagged for a closer look

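For Ifitm1, an interferon-induced membrane protein, the difference between CD8 T cells and CD8-negative T cells was above 0 in every MYC spinal tumor and below 0 in every eRT, though by only 0.01 in MYC spinal 2. The mean log2 difference was 0.262 in MYC spinal and -3.754 in eRT. Members held 157, 86.3, 369, 235, 60.9 and 0 CPM of Ifitm1 in MYC spinal 1, 2 and 3 and eRT 1, 2 and 3, and CD8-negative T cells 106, 63.9, 326, 393, 736 and 298 CPM. The members of MYC spinal 2 held 2 UMIs, under the limit of 3, and those of eRT 3 held 0, so the size of the eRT mean depends on the prior count. The interaction missed the threshold in the edgeR test (Benjamini-Hochberg adjusted p = 0.0552, and 0.18 without TMM). Of 2923 genes tested, 59 (2.02%) split the tumors by sign in this way.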

How the results depend on the processing

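No gene named against CD8-negative T cells or NK cells changed sign under the alternatives run. Against CD8-negative T cells, the count of 106 became 46 in DESeq2, 333 with every gene that had a UMI and 0 without the tumor block, and ranged from 37 to 138 when 1 tumor was left out. Against NK cells, the count of 66 became 224 with every gene, 41 with cells thinned to 1000 UMIs and 19 without the block, and ranged from 22 to 79 when 1 tumor was left out. For named genes, 421 of 562 repeats against CD8-negative T cells and 381 of 413 against NK cells kept their side of the threshold. Against CD8-negative T cells, Rmnd5b, Myc, Ccl6, Apoe, Atf3 and Ms4a6c failed in more alternatives than they passed. Between subtypes, 13 genes passed when every gene with a UMI was tested (3 higher and 10 lower in eRT), and 2 passed when tumors with under 30 members were left out, where the lone eRT was assumed to vary like the other group. The difference in the share of kept cells turned to 0.858 percentage points without MYC spinal 1 and ranged from -9.97 to 0.858 when 1 tumor was left out. The share of Cd3-positive cells ranged from -15.7 to -2.63. Stricter cell filters, 2 CD8 UMIs, thinning and leaving out cells with myeloid RNA dropped MYC spinal 2, and asking for no C1q UMI dropped eRT 1, each with under 10 members left. The causes were not tested.

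Depth limited the description: 3 UMIs equal 129.5 CPM in the members of MYC spinal 2, and cells with 1 CD8 UMI made up 149 of 550 members.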
